A study of Rattus norvegicus with 3 samples.

Results

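Cxcl1, Cxcl2, Cxcl3 and Cxcl6 are chemokines that attract neutrophils, and Cxcr2 is the receptor on neutrophils that binds them. These 5 genes were picked by symbol from the 32883 genes measured by single-cell RNA sequencing in 3 libraries from skin wounds of diabetic rats, and their identifiers are ENSRNOG00000002802, ENSRNOG00000002792, ENSRNOG00000028043, ENSRNOG00000002843 and ENSRNOG00000014269 in that order. All animals were wild-type male SD rats of 8 to 10 weeks that received streptozotocin, a toxin of insulin-producing cells, at 65 mg/kg into the peritoneum at 7 to 9 weeks and had blood glucose above 16.7 mM before a full-thickness wound of 15 mm was made. One wound group was left untreated, one received a hyaluronic acid hydrogel (hydrogel) and one received the CO-releasing form of it (CO hydrogel), where CO is carbon monoxide. The skin was taken on day 7, a day that the protocol ties to hydrogel-treated wounds and that is given in the same words for the untreated library. Each group had 1 library, and the number of rats behind a library is not given in the sources used here. There was thus no replicate check and no test: intervals are exact 95% intervals for counting error only, and a gene was called higher or lower when 2 libraries differed at least 2-fold. The 3 pairs of libraries share libraries and are not independent.

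These chemokines are small secreted proteins of the CXC family that carry the Glu-Leu-Arg motif ahead of their first cysteines. They bind glycosaminoglycans on vessel walls and matrix and signal through Cxcr2, a G protein-coupled receptor, so that neutrophils leave the blood and move toward injured tissue. Their genes are switched on by NF-kB downstream of interleukin-1, TNF and Toll-like receptors, and interleukin-17 stabilises their mRNA. Neutrophils also make Cxcl2 themselves, which draws in further neutrophils, and long-lasting neutrophil influx is a feature of diabetic wounds.

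The promoters of Cxcl1, Cxcl2, Cxcl6 and Cxcr2 are shown, and those of the 3 ligands each hold an NF-kB match close to the start. Cxcl3 is not shown because the reference used held no promoter entry for it, so whether it has a match is not known here. Each line is the 150 bases before the gene's start from RefSeq build GRCr8, read 5′ to 3′ on the gene's strand, and capitals mark matches to the NF-kB consensus. Cxcl1 lies at chr14:17479322-17479471 on the minus strand, Cxcl2 at chr14:17467256-17467405 on the minus strand, Cxcl6 at chr14:17596418-17596567 on the minus strand and Cxcr2 at chr9:83178495-83178644 on the plus strand. Cxcl1 and Cxcl2 are next to each other on chromosome 14, and Cxcr2 is next to Cxcr1.
Cxcl1: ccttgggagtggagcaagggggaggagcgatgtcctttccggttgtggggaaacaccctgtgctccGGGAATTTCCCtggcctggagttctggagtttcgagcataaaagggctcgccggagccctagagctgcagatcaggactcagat
Cxcl2: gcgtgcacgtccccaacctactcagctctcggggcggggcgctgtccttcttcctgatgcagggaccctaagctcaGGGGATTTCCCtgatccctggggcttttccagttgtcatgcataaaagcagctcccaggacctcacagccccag
Cxcl6: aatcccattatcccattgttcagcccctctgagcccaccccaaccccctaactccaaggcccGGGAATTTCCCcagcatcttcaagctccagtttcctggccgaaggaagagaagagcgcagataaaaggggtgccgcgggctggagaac
Cxcr2: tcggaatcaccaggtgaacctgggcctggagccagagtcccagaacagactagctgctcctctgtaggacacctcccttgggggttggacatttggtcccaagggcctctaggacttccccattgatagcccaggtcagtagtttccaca
On both strands together, the windows of Cxcl1, Cxcl2 and Cxcl6 held 2, 3 and 2 overlapping matches, and the window of Cxcr2 held 0. Among 33469 windows of the same length, 1277 (3.82%) held a match. A narrower form, GGGNATTTCC, was in all 3 ligand windows and in 56 of the 33469 (0.167%). These matches describe letters only, and binding was not measured.

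The 3 libraries held 12883 to 15442 cell barcodes and 78233883 to 109718517 UMIs (unique molecular identifiers, each standing for 1 captured mRNA molecule). After filters, 10550 untreated, 12069 hydrogel and 12659 CO hydrogel cells remained, with median depths of 2643.5, 5951 and 6073 UMIs. Libraries shared 364 barcodes (untreated and hydrogel), 600 (untreated and CO hydrogel) and 477 (hydrogel and CO hydrogel). Of those kept in both libraries, 278, 456 and 347, the share that fell in the same cell class was 88.5%, 89.0% and 88.2%. In the untreated library such barcodes were 198 of 1369 fibroblast-like, 127 of 1171 macrophage or monocyte-like and 32 of 5653 neutrophil-like cells. Leaving out all of them moved 58 ratios of the members between libraries by at most 0.23 on the log2 scale, with a median of 0.017, and values without them are given beside the results where they matter.

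Cells were grouped into 27 clusters without using the 5 genes and named from marker genes. Neutrophil-like cells, called from markers such as S100a8, Csf3r and Retnlg, were 5653 (53.6%) of the untreated cells, 2383 (19.7%) of the hydrogel cells and 455 (3.59%) of the CO hydrogel cells. Macrophage or monocyte-like cells were 1171, 3634 and 2848, and fibroblast-like cells were 1369, 1753 and 5012. Where these classes consisted of different clusters in different libraries, the clusters are named below. Cluster 16, led by Csf3, Ereg and Arg1, stayed unnamed and held 447, 416 and 15 cells. Cluster 21, led by the interferon-induced genes Rsad2 and Isg15, also stayed unnamed, with 26, 425 and 3 cells. Its cells carried neutrophil markers, as given below, but are not counted in the neutrophil-like shares.

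Levels below are UMIs of a gene per 1000000 UMIs of the class (CPM). Sequencing was from the 3′ end, where a molecule gives 1 UMI whatever its length, so CPM of different genes are compared directly. An observed ligand level rests on at least 1000 UMIs unless an interval or a UMI count is given for it. The interval of every such level lay within 6.34% of it. Levels of Cxcr2 and of other genes can rest on fewer UMIs where no interval is printed, and their counting error can be wider. Cxcr2 had 1027 (untreated), 480 (hydrogel) and 68 (CO hydrogel) UMIs over all kept cells. Its levels by neutrophil-like cluster divide 953, 386 and 56 UMIs of these libraries. For log2 ratios with at least 1000 UMIs in both libraries, the interval reached at most 0.10 to either side. Cxcl1, Cxcl2 and Cxcl3 are close paralogs, and how reads shared between them were counted is not given in the sources used here.

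Over all kept cells, Cxcl1, Cxcl2 and Cxcl3 mRNA was highest in the untreated library. Cxcl2 was at 16047 CPM in the untreated library, 4771 in the hydrogel library and 1261 in the CO hydrogel library. Cxcl3 was at 10937, 1857 and 504 CPM and Cxcl1 at 7144, 5488 and 5259 CPM. Cxcl6 stood apart, with 50.8, 113 and 48.0 CPM. Cxcr2 was at 14.9, 5.24 and 0.732 CPM, in the order of the neutrophil-like shares. These totals depend on how many cells of each class a library held, so the classes were read separately.

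**Figure D1:**
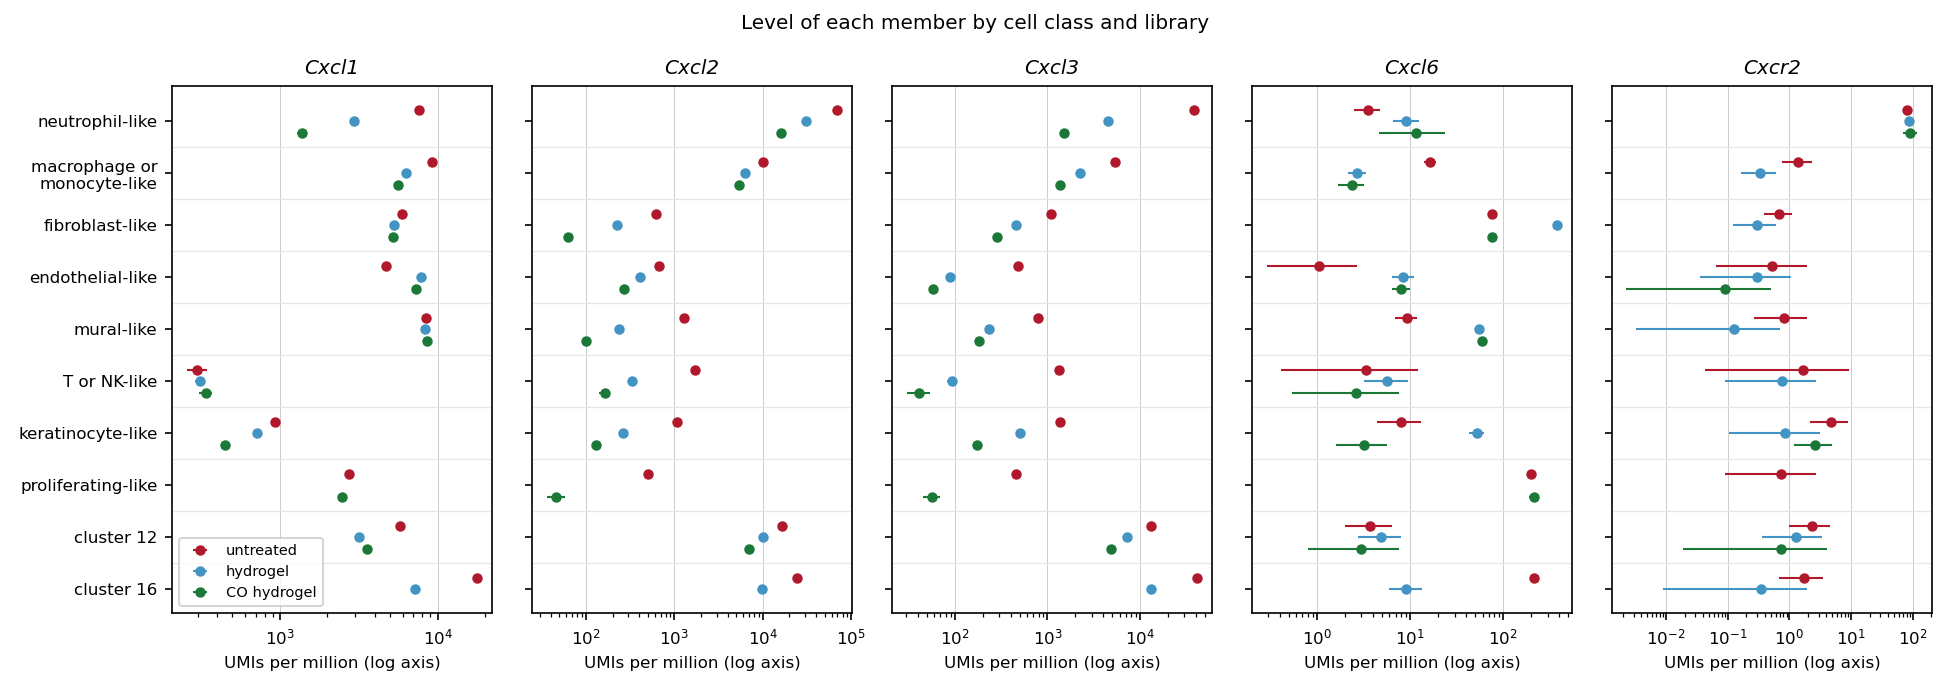
Level of each gene (1 panel each) in 10 cell classes or unnamed clusters, in CPM on a log axis, with untreated in red, hydrogel in blue and CO hydrogel in green; bars are 95% Poisson intervals, levels of 0 and groups of too few cells are not drawn. Cxcl2 in neutrophil-like cells ran from 69966 in the untreated to 16129.5 in the CO hydrogel library, whereas Cxcl1 in fibroblast-like cells stayed between 5196 and 5909.

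Over the named cell classes with at least 100 cells in both libraries, counts of members at least 2-fold apart were taken for genes with at least 100 UMIs over the pair. Between hydrogel and untreated, 14 of 26 member-by-class values were lower and 3 were higher in the hydrogel library, where 1.78% of all genes by class were lower and 6.2% were higher. Between CO hydrogel and untreated, 18 of 29 were lower and 1 was higher, against 2.09% and 6.81% of all genes. Between CO hydrogel and hydrogel, 10 of 27 were lower and 0 were higher, against 1.65% and 2.33%. The lower values were mostly of Cxcl2 (5, 7 and 4 in the 3 pairs) and Cxcl3 (7, 8 and 3), and the higher ones were all of Cxcl6. Free neutrophil mRNA, estimated below, limits these counts. Untreated Cxcl2 was under 2 times the level expected from it (0.713 to 1.85) in the other named classes compared, except macrophage or monocyte-like cells (7.71). Untreated Cxcl3 was so in T or NK-like (1.01), endothelial-like (1.87) and keratinocyte-like (1.86) cells, but not in the rest (2.09 to 7.39). The part of free mRNA in these counts was not tested.

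Cxcl2 was the most abundant of the 5 genes in neutrophil-like cells. It made up 69966 CPM in untreated cells, 30623 in hydrogel cells and 16129.5 in CO hydrogel cells. The 4 ligands together were 11.6% of all UMIs of untreated neutrophil-like cells, 3.81% of those of hydrogel cells and 1.90% of those of CO hydrogel cells. The log2 ratios of Cxcl2 were -1.19 (hydrogel to untreated), -2.12 (CO hydrogel to untreated) and -0.92 (CO hydrogel to hydrogel), the last of which was within 2-fold. After thinning every cell to 1000 UMIs, Cxcl2 was seen in 99.9%, 97.4% and 91.5% of neutrophil-like cells.

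Cxcl3 differed most between the neutrophil-like cells of the 3 libraries. It was at 38429 CPM in untreated cells, 4491 in hydrogel cells and 1519 (1422 to 1620) in CO hydrogel cells, and the log2 ratios were -3.10, -4.66 and -1.56 in the order used above. Its share of thinned cells was 88.7%, 40.7% and 26.6%. Of the 4-ligand UMIs in these cells, Cxcl3 was 33.1% for untreated, 11.8% for hydrogel and 7.98% for CO hydrogel, and Cxcl2 was 60.3%, 80.4% and 84.7%. Cxcl1 was at 7646, 2956 and 1382 (1290 to 1479) CPM, with log2 ratios of -1.37, -2.47 (-2.57 to -2.37) and -1.10 (-1.20 to -0.996), and its share of the ligands was nearly the same in all 3 libraries (6.59%, 7.76% and 7.26%). Of 4 members measured, 3 were lower in hydrogel than in untreated neutrophil-like cells, 3 in CO hydrogel than in untreated and 2 in CO hydrogel than in hydrogel, where 2.35%, 4.71% and 2.34% of genes were.

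The size of these neutrophil differences depended on the scale. The median of all genes was at a log2 ratio of 0.72 between hydrogel and untreated, at 0.72 between CO hydrogel and untreated and at 0.10 between CO hydrogel and hydrogel. With TMM scaling, which centres on the bulk of genes, the median was -0.17, -0.43 and -0.16. The ratios of Cxcl3 were then -3.99, -5.82 and -1.83, those of Cxcl2 -2.08, -3.27 and -1.19 and those of Cxcl1 -2.26, -3.62 and -1.36, so all 3 stayed lower. Without shared barcodes, Cxcl3 was at -3.10, -4.66 and -1.57, and Cxcl2 at -1.19, -2.11 and -0.92. For Cxcl2 between CO hydrogel and hydrogel, 1 of 11 alternative settings passed 2-fold, and for Cxcl1 in that pair 7 of 11 did, with ratios from -1.36 to -0.88.

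3 clusters made up the neutrophil-like class, and their shares differed between libraries. Cluster 1, led by Il23a and Ccl3, was 64.6% of the class in the untreated library, 11.5% in the hydrogel library and 3.08% in the CO hydrogel library. Cluster 0, with Csf3r among its leading genes, was 18.6%, 83.7% and 90.1%, and cluster 2, led by the granule genes Retnlg, Mmp8 and Camp, was 16.8%, 4.83% and 6.81%. Cluster 1 had the highest Cxcl1, Cxcl2 and Cxcl3 in every library, with Cxcl3 at 51305, 16338 and 10447 (188 UMIs) CPM. Cxcl3 in cluster 0 was 8559, 2937 and 1283 (698 UMIs) CPM, and in cluster 2 it was 19529, 2027 (532 UMIs) and 798 (36 UMIs) CPM.

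Within each of these clusters the untreated library was highest and the CO hydrogel library lowest for Cxcl1, Cxcl2 and Cxcl3. In cluster 0, the log2 ratios of hydrogel to untreated were -0.35 for Cxcl1, -0.52 for Cxcl2 and -1.54 for Cxcl3. Those of CO hydrogel to untreated in cluster 0 were -1.26, -1.28 and -2.74. In cluster 1, the hydrogel to untreated ratios were -0.59, -0.47 and -1.65, so that of the 3 only Cxcl3 was over 2-fold apart in clusters 0 and 1. In cluster 2 they were -0.89, -1.27 and -3.27. Only 14 CO hydrogel cells were in cluster 1 and 31 in cluster 2. Because clusters were built on genes that may move with the ligands, these within-cluster values are descriptions.

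**Figure D2:**
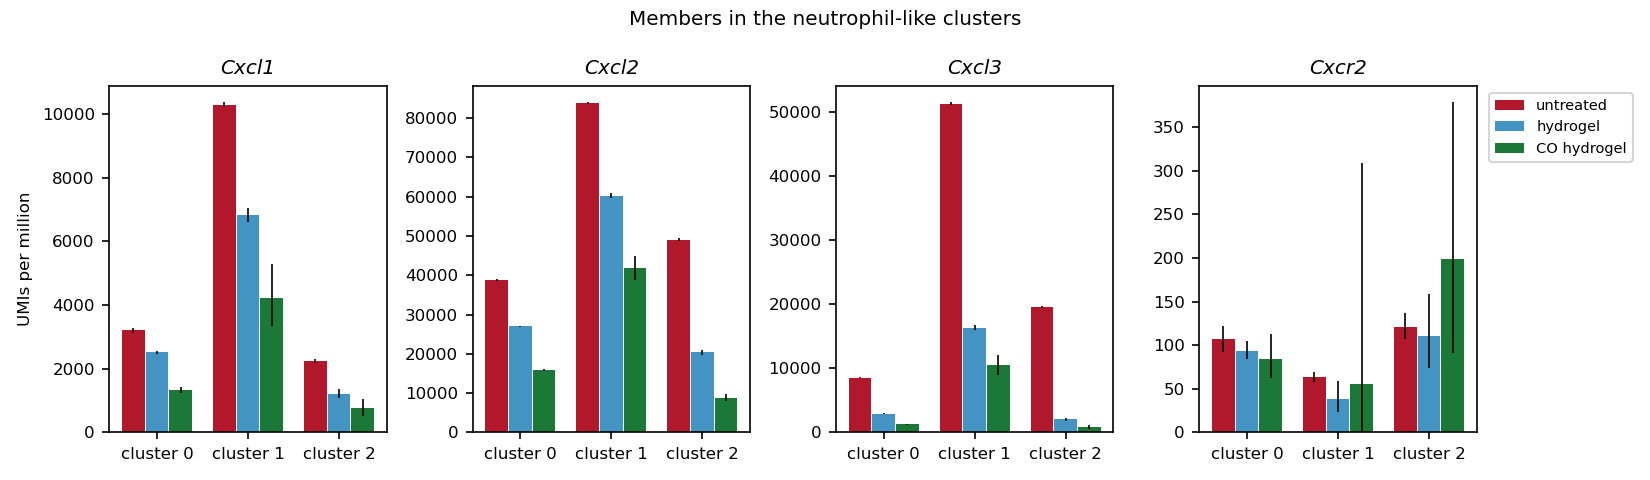
Level of Cxcl1, Cxcl2, Cxcl3 and Cxcr2 (1 panel each) in the 3 neutrophil-like clusters, in CPM on an axis from 0, by library, with 95% Poisson intervals. The untreated library had the highest bar in each cluster for the 3 ligands, with Cxcl3 at 51305 in cluster 1, and Cxcr2 had the same order in cluster 0 (107, 93.8 and 84.6).

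Cxcr2 was within 2-fold between the libraries in these cells. The receptor was at 81.4 (76.3 to 86.8) CPM in untreated, 88.1 (79.5 to 97.3) in hydrogel and 92.2 (69.7 to 119.8) in CO hydrogel neutrophil-like cells, and the 3 intervals overlapped. The log2 ratios were 0.11 (-0.06 to 0.29), 0.18 (-0.24 to 0.57) and 0.07 (-0.36 to 0.47) against the all-gene medians given above, and with TMM scaling they were -0.77, -0.97 and -0.20, so the direction depends on the scale. A Cxcr2 UMI was seen in 7.28% (6.60 to 8.00), 8.16% (7.07 to 9.36) and 7.40% (4.93 to 10.6) of thinned cells, and in 14.4%, 14.5% and 10.99% of unthinned cells. By cluster, Cxcr2 was at 107, 93.8 and 84.6 CPM in cluster 0, and at 63.8 and 38.0 CPM in cluster 1 of the untreated and hydrogel libraries. The hydrogel to untreated ratios in clusters 0, 1 and 2 were -0.19 (-0.44 to 0.07), -0.75 (-1.47 to -0.10) and -0.13 (-0.74 to 0.43).

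Neutrophil-like cells held 92.8%, 80.4% and 82.4% of the Cxcr2 UMIs of the 3 libraries. In hydrogel, a further 12.9% lay in cluster 21, at 75.5 (57.9 to 96.8) CPM, a level whose interval overlapped that of neutrophil-like cells, and cluster 21 had neutrophil markers at 60.6% of their neutrophil-like level (median). In the CO hydrogel library 9 of 68 Cxcr2 UMIs (13.2%) lay in keratinocyte-like cells, which also had a summed level of 11 neutrophil markers of 13049.9 CPM (1 of the 11 was at 0), against 89493 in neutrophil-like cells. In untreated and hydrogel keratinocyte-like cells that sum was 5869 and 26412 CPM, so it did not follow the order of the neutrophil-like shares. Whether keratinocyte-like cells make some of these markers themselves was not tested. By the estimate of free neutrophil mRNA described next, keratinocyte-like Cxcr2 was 16.03 times the expected level in CO hydrogel and 3.06 times in untreated, but 0.14 and 0.44 times when S100a8 and S100a9 alone set it. Macrophage or monocyte-like cells had 14, 11 and 0 Cxcr2 UMIs, and fibroblast-like cells had 16, 7 and 0. The 0 in CO hydrogel cells allows up to 0.182 CPM in macrophage or monocyte-like and 0.0638 CPM in fibroblast-like cells.

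Free mRNA from broken neutrophils can enter droplets of other cells, so the level expected from it was estimated. In each class, the level of up to 10 neutrophil markers relative to neutrophil-like cells was taken, and its median was multiplied by the member's level in neutrophil-like cells. By this measure free neutrophil mRNA was 0.898%, 0.461% and 0.0593% of the neutrophil level in fibroblast-like cells, in the order untreated, hydrogel and CO hydrogel. It was 1.86%, 0.805% and 0.163% in macrophage or monocyte-like cells. Summed over 11 neutrophil markers, the level in fibroblast-like cells was 1330.0, 489 and 229 CPM with 0 markers absent, and in macrophage or monocyte-like cells 1152, 488 and 207 CPM with 1 marker absent in CO hydrogel. For Cxcr2 in fibroblast-like cells, the observed level was 0.930 and 0.738 times the expected one in untreated and hydrogel, and in macrophage or monocyte-like cells it was 0.907 and 0.471 times, so these Cxcr2 UMIs were at the estimated background. Some markers are made by other cells (Lcn2 in untreated fibroblast-like cells was at 470.8% of its neutrophil level), so the highest marker ratio is an upper limit.

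**Figure D3:**
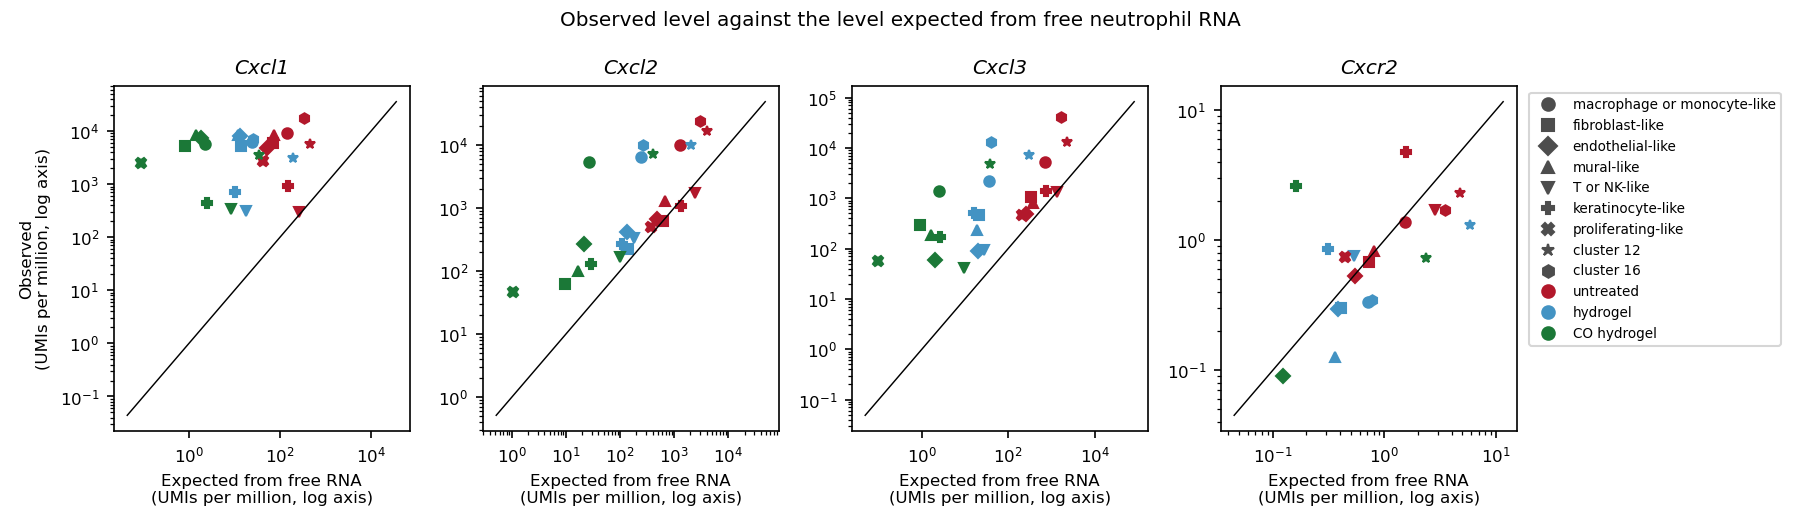
Observed level of Cxcl1, Cxcl2, Cxcl3 and Cxcr2 (1 panel each) in cell classes other than neutrophil-like, against the level expected from free neutrophil mRNA, both in CPM on log axes; the line marks equality and colours mark libraries. Cxcl1 in fibroblast-like cells stood 86.0 to 6342 times above the line, whereas untreated fibroblast-like Cxcl2 stood on it at 0.992 times.

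Of the ligand-by-class levels that could be compared, 17 of 27 in untreated, 21 of 24 in hydrogel and 26 of 27 in CO hydrogel were at least 2 times the estimated free level. Cxcl1 and Cxcl6 in stromal cells were far above it. Cxcl2 was not in several classes. In untreated cells, the observed Cxcl2 was 0.992 times the expected level in fibroblast-like, 1.40 times in endothelial-like, 1.85 times in mural-like and 0.713 times in T or NK-like cells. Library differences of Cxcl2 in these classes are given with the free level beside them, and the part that free mRNA has in them was not tested.

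Cxcl1 was the most abundant ligand in stromal and vessel-wall cells, and it differed little between libraries in fibroblast-like and mural-like cells. In fibroblast-like cells, which make the collagen matrix, Cxcl1 was at 5909 CPM untreated, 5321 hydrogel and 5196 CO hydrogel, with log2 ratios of -0.15, -0.19 and -0.03. The values lay within 1.14-fold of each other. In mural-like cells, the pericytes and smooth muscle around vessels, Cxcl1 was at 8379.6, 8311 and 8529 CPM, and of its ratios of -0.01, 0.03 and 0.04, the ones to untreated had the other sign under some settings. In endothelial-like cells, which line vessels, it was at 4738, 7901 and 7311 CPM, with ratios of 0.74 (hydrogel to untreated) and 0.63 (CO hydrogel to untreated). When each cell was weighted equally, those endothelial ratios were 0.22 and 0.13. Endothelial cluster 19, led by Rbp7 and Gpihbp1, had 8957, 12306 and 9628 CPM and was 5.90%, 13.9% and 29.2% of the class, whereas cluster 13, led by Sele and Selp, had 4030, 5773 and 5205 CPM.

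The order of Cxcl1 over classes differed between libraries. In the untreated library, cluster 16 led with 17800.1 CPM, followed by macrophage or monocyte-like (9162), mural-like (8379.6), neutrophil-like (7646), fibroblast-like (5909), cluster 12 (5781) and endothelial-like cells (4738). In the hydrogel library, mural-like and endothelial-like cells led, then cluster 16 (7183) and macrophage or monocyte-like cells (6268). In the CO hydrogel library, among classes of at least 100 cells, mural-like, endothelial-like and macrophage or monocyte-like (5579.5) cells led, and neutrophil-like cells were below all of these. Intervals of neighbours among these classes did not overlap, but in hydrogel those of cluster 12, proliferating-like and neutrophil-like cells did (3156, 3040 and 2956 CPM). T or NK-like cells were low in every library, with 298 (256 to 346), 312 (291 to 334) and 338 (305 to 373) CPM, and the untreated value was 1.13 times the free level. Small classes (osteoclast-like, mast or basophil-like and adipocyte-like cells, each under 100 cells) ranged from 135 CPM (5 UMIs) to 2093 CPM (251 UMIs).

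The other members were ordered differently over the classes. For Cxcl2, neutrophil-like cells led among classes of at least 100 cells in all 3 libraries, and in hydrogel they were followed by cluster 21 (28319.8 CPM), cluster 12 and cluster 16, whose intervals overlapped. For Cxcl3, cluster 16 led in untreated and hydrogel and cluster 12 in CO hydrogel, and neutrophil-like cells were above macrophage or monocyte-like cells in each library, by 1519 to 1368 CPM in CO hydrogel. For Cxcl6, proliferating-like and fibroblast-like cells came before mural-like cells in the hydrogel and CO hydrogel libraries, and in untreated the intervals of cluster 16 and proliferating-like cells overlapped. For Cxcr2, neutrophil-like cells led in each library among classes of at least 100 cells, with cluster 21 next in hydrogel, and intervals of nearly all classes below 5 CPM overlapped with those of their neighbours.

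In fibroblast-like cells, Cxcl2 and Cxcl3 were lower in both treated libraries. Cxcl2 was at 623, 222 and 61.8 CPM, with log2 ratios of -1.49, -3.33 and -1.84. The expected free levels were 628, 141 and 9.56 CPM, so the untreated Cxcl2 was at the estimated background and the CO hydrogel Cxcl2 was 6.46 times above it. Against all cells of the library as the source of free mRNA, the observed Cxcl2 was 0.80, 0.70 and 1.01 times the expected level. Cxcl3 was at 1081, 462 and 287 CPM, 3.13, 22.3 and 319 times the expected free level, with ratios of -1.23, -1.91 and -0.68. Against all cells as the source, Cxcl3 was 2.04, 3.74 and 11.7 times the expected level. Of 4 members measured in fibroblast-like cells, 2 were lower in each of the 3 pairs, where 2.96%, 3.44% and 1.79% of genes were, and 1 was higher in hydrogel than in untreated, where 4.97% of genes were.

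Cxcl6 was the member that hydrogel-treated stroma had more of. In fibroblast-like cells it was at 76.3 CPM untreated, 375 hydrogel and 75.5 CO hydrogel, so only the hydrogel library stood out. The log2 ratios were 2.30 (2.22 to 2.37), -0.02 (-0.10 to 0.07) and -2.31, and without shared barcodes they were 2.36, 0.05 and -2.31. A few cells carried much of the untreated value: 14 cells held 63.6% of the untreated UMIs, with up to 345 UMIs in 1 cell. Without the 1% of cells with the most Cxcl6 UMIs in each library, the ratios were 3.44, 0.78 and -2.66. In thinned cells, 4.10%, 16.04% and 5.02% had a Cxcl6 UMI. When each library was clustered alone, the ratio of CO hydrogel to untreated was 2.22.

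Fibroblast cluster 11, led by Tnn and Prss35, carried most Cxcl6. It had 282, 721 and 237 CPM and was 24.4%, 43.9% and 21.1% of the class. Cluster 9, led by Cxcl13, Cxcl12 and Igf1, had 45.5 (155 UMIs), 82.5 (706 UMIs) and 38.7 (831 UMIs) CPM, and cluster 10, led by Gap43, Msln and Dpp4, had 10.1 (145 UMIs), 29.3 (68 UMIs) and 12.3 (97 UMIs) CPM. The ratios of hydrogel to untreated within clusters 9, 10 and 11 were 0.86, 1.54 and 1.35, and those of CO hydrogel to untreated were -0.23, 0.28 and -0.25. The higher hydrogel level was thus present in each of these clusters, at a smaller size than over the class. Cxcl1 had another pattern over the same clusters, with 2598 to 7178 CPM in the untreated library and its lowest level in cluster 11.

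In mural-like cells Cxcl6 was higher in both treated libraries. It was at 9.18 (6.93 to 11.9), 54.6 (49.5 to 60.0) and 59.6 (53.9 to 65.7) CPM, with ratios of 2.57, 2.70 and 0.13, and 2.50, 2.69 and 0.19 without shared barcodes. Without the 1% of cells with the most Cxcl6 UMIs in each library, the mural ratios to untreated were 3.89 and 3.96. Endothelial-like cells had 1.06 (0.288 to 2.70), 8.44 (6.40 to 10.9) and 8.03 (6.45 to 9.88) CPM from 4, 57 and 89 UMIs. Proliferating-like cells had 199.7 (183 to 217), 541 (504 to 581) and 213 (191 to 238) CPM, and this class held only 70 hydrogel cells. In keratinocyte-like cells 109 of the 121 hydrogel UMIs came from 1 cell. Macrophage or monocyte-like cells went the other way, with 16.4 (14.0 to 19.1), 2.70 (2.17 to 3.33) and 2.36 (1.68 to 3.23) CPM, but 12 untreated cells held 85.0% of the untreated UMIs. Without the top 1% of cells, the macrophage ratios were -0.79, -2.35 and -1.56 in place of -2.60, -2.80 and -0.19.

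Macrophage or monocyte-like cells expressed Cxcl1, Cxcl2 and Cxcl3 at high levels in all 3 libraries. Cxcl2 was at 10043, 6294 and 5392 CPM, Cxcl1 at 9162, 6268 and 5579.5 CPM and Cxcl3 at 5293, 2236 and 1368 CPM. The untreated level was the highest for each, and the ratios of Cxcl3 were -1.24 and -1.95 to untreated and -0.71 between the treated libraries. Cxcl1 had ratios of -0.55, -0.72 and -0.17 and Cxcl2 of -0.67, -0.90 and -0.22. These sizes depended on how the cells were clustered. Over 11 alternative settings, the ratio to untreated of Cxcl3 reached -2.51 in hydrogel and -3.50 in CO hydrogel, both with finer clusters. Cxcl2 passed 2-fold in 2 of 11 settings for hydrogel to untreated (down to -1.12) and in 3 of 11 for CO hydrogel to untreated (down to -1.40), and Cxcl1 in 2 of 11 for CO hydrogel to untreated (down to -1.06). Of 4 members measured, 2 (Cxcl3 and Cxcl6) were lower in each treated library than in untreated, where 2.17% and 1.39% of genes were, and 0 were lower in CO hydrogel than in hydrogel, where 2.66% were. Cxcl2 and Cxcl3 in untreated macrophages were 7.71 and 7.39 times the estimated free level, but only 1.28 and 1.23 times when the highest marker, Csf3r, set it.

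The macrophage differences varied by cluster. Cluster 5, led by Cd163 and Lyve1, had nearly the same Cxcl1 in all libraries (9770.2, 10170.4 and 9293 CPM) and Cxcl2 at 8991, 11042 and 8412 CPM. Cluster 4, led by Cxcl11 and Spp1, had Cxcl1 at 10451, 6522 and 4829 CPM, and cluster 6, led by Trem2 and Gpnmb, had 7759, 5117 and 2912 CPM. The ratios of CO hydrogel to untreated for Cxcl1, Cxcl2 and Cxcl3 were -0.07, -0.10 and -0.58 in cluster 5, -1.11, -1.41 and -2.40 in cluster 4 and -1.41, -1.67 and -2.25 in cluster 6. Cluster 4 was 44.3%, 58.5% and 15.4% of the class, and cluster 5 was 21.0%, 7.76% and 35.2%. The class-wide Cxcl1 thus covers a cluster with nearly equal levels and clusters that were lower in the treated libraries.

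Cluster 16 had the highest Cxcl3 of any class in the untreated library. Its Cxcl3 was at 41438 CPM untreated and 13249 hydrogel, its Cxcl2 at 24084 and 9879 CPM and its Cxcl1 at 17800.1 and 7183 CPM. The ratios of hydrogel to untreated were -1.65, -1.29 and -1.31 for Cxcl3, Cxcl2 and Cxcl1. Its Cxcl6 was at 217 (203 to 232) and 9.10 (5.94 to 13.3) CPM. Only 15 CO hydrogel cells were in it, and 7 of these shared a barcode with another library. Cluster 12, led by Fcnb, Mal and Ereg, had Cxcl2 at 16370.4, 10052 and 7026 CPM and Cxcl3 at 13177, 7142 and 4824 CPM, again with the untreated library highest.

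Vessel and lymphoid classes had Cxcl2 and Cxcl3 at low levels that were highest in the untreated library. Mural-like Cxcl2 was at 1275, 237 and 98.8 (91.5 to 107) CPM, and mural-like Cxcl3 at 789.6, 236 and 182 CPM. Endothelial-like Cxcl3 was at 486, 88.9 (81.9 to 96.3) and 58.8 (54.4 to 63.5) CPM. T or NK-like Cxcl3 was at 1346 (1254 to 1443), 93.5 (82.2 to 106) and 41.0 (30.1 to 54.5) CPM, a log2 ratio of -3.85 and -5.04 to untreated. The untreated T or NK-like value was 1.01 times the free level, the mural-like 2.09 times and the endothelial-like 1.87 times, and summed neutrophil markers in T or NK-like cells were 1744, 430.2 and 460.5 CPM. Keratinocyte-like Cxcl3 was at 1369, 501 and 172 (158 to 186) CPM. These values were 1.86, 31.6 and 64.0 times the free level, but 0.27, 0.18 and 0.56 times when S100a8 and S100a9 alone set it. Of the 100 untreated keratinocyte-like cells, 22 shared a barcode with another library.

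**Figure D4:**
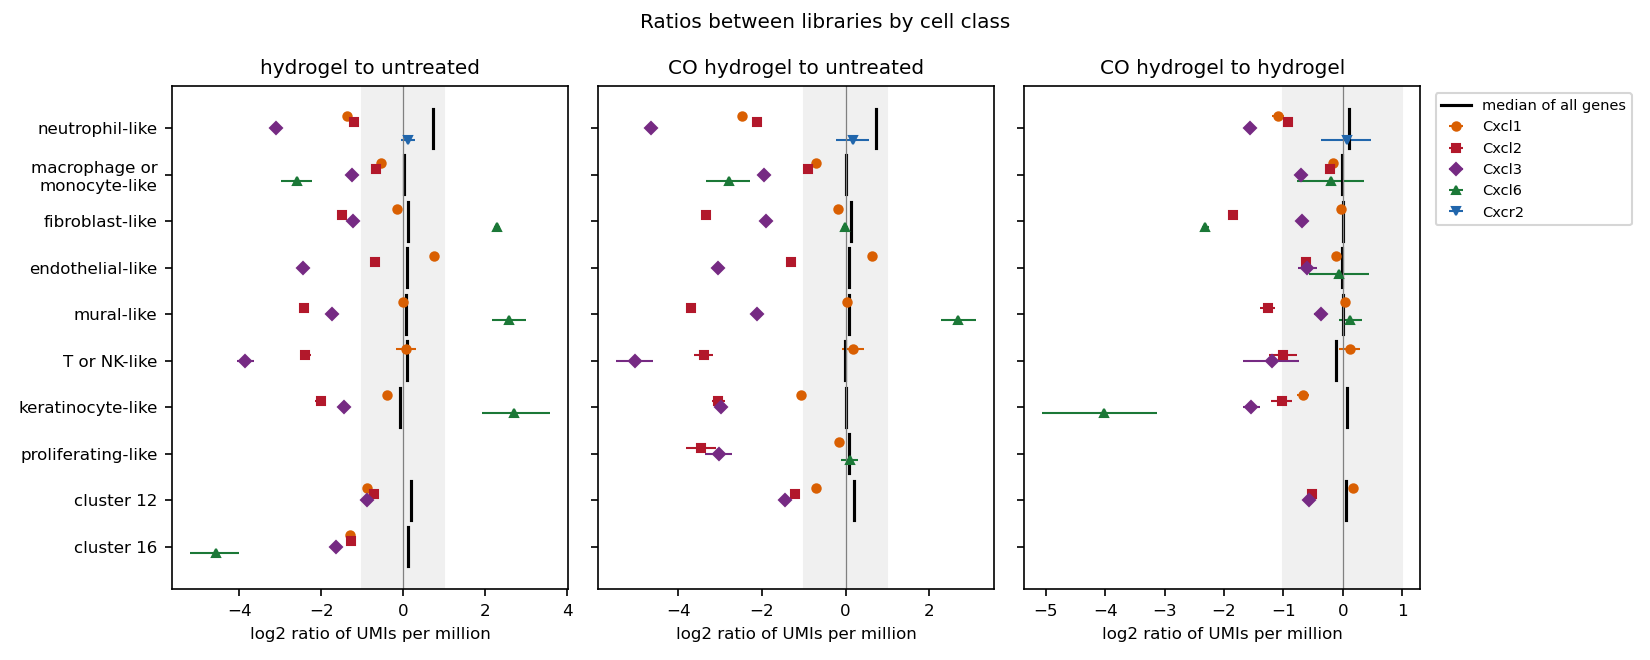
Log2 ratio of each member between 2 libraries (1 panel per pair) by cell class, with 95% intervals; the grey band is within 2-fold and the black tick is the median of all genes of the class. Cxcl3 lay left of the band in neutrophil-like cells in all 3 panels (-3.10, -4.66 and -1.56), and Cxcl6 in fibroblast-like cells lay right of it for hydrogel to untreated (2.30).

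The ligand UMIs lay in different cell classes in each library. Of the 4-ligand UMIs, neutrophil-like cells held 57.5% (57.4 to 57.6) of the untreated, 14.9% (14.8 to 15.0) of the hydrogel and 1.76% (1.73 to 1.79) of the CO hydrogel ones. These shares leave out the unnamed cluster 21, with 2704, 26810 and 89 ligand UMIs. Its summed neutrophil markers in hydrogel were 53237 CPM, against 73310 in neutrophil-like cells, so the hydrogel share would be higher if it were counted. Macrophage or monocyte-like cells held 10.6%, 43.5% and 31.0%, and fibroblast-like cells 7.66%, 13.3% and 40.2%. For Cxcl2 the main holder was the neutrophil-like class in the untreated library (73.8%) and the macrophage or monocyte-like class in the CO hydrogel library (76.0%). For Cxcl1 it was the fibroblast-like class in the untreated (28.2%) and CO hydrogel (50.0%) libraries and the macrophage or monocyte-like class in hydrogel (41.1%). For Cxcl6 it was the fibroblast-like class in all 3 (51.1%, 84.8% and 79.6%). Such shares follow the number of cells recovered, and for a wound they cannot be told apart from differences in dissociation.

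**Figure D5:**
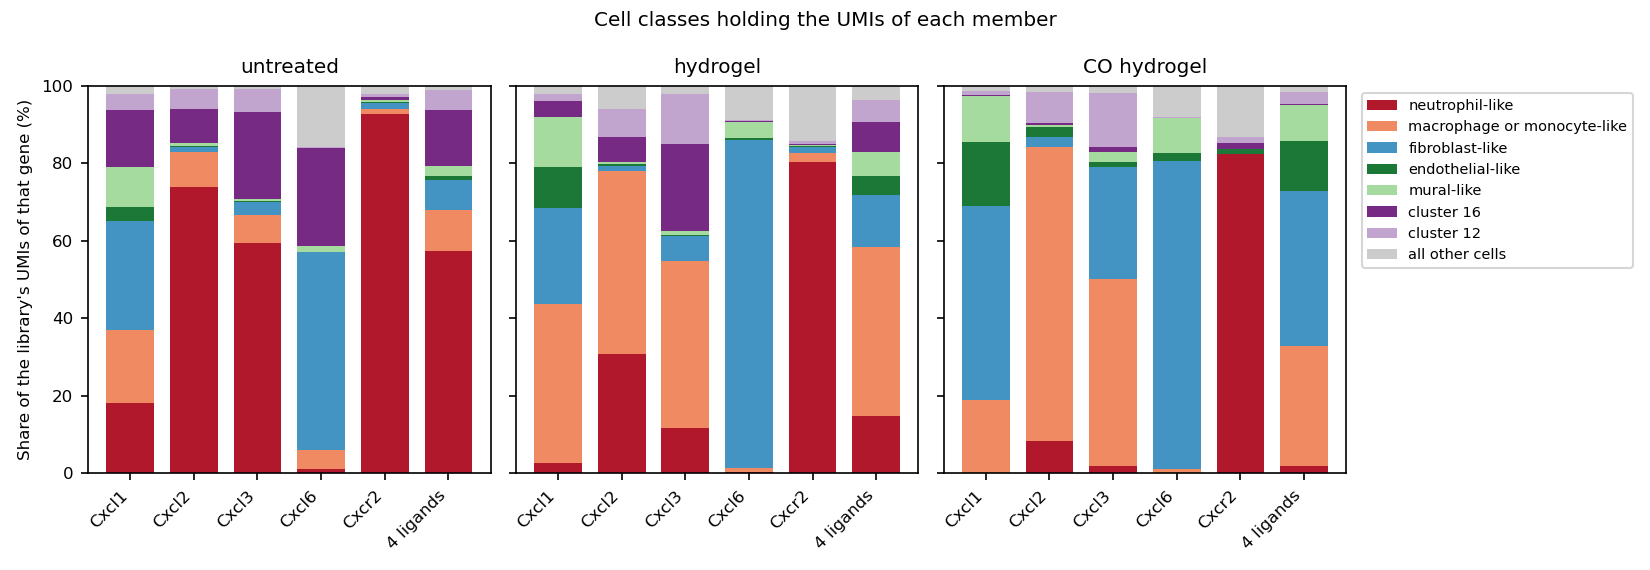
Share of each library's UMIs of each member, and of the 4 ligands together, held by each cell class (stacked bars in percent, 1 panel per library). Neutrophil-like cells held 57.5% of the ligand UMIs in the untreated library and 1.76% in the CO hydrogel library.

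Single cells often had several ligands at once. In thinned neutrophil-like cells, 3 ligands were seen together in 61.4%, 24.3% and 13.4%, and at least 1 ligand in 99.96%, 98.8% and 95.1%. In macrophage or monocyte-like cells 3 ligands were seen in 64.5%, 40.1% and 39.3%, and in fibroblast-like cells in 12.7%, 5.57% and 1.57%. Fibroblast-like Cxcl2 was 0.992, 1.57 and 6.46 times the level expected from free neutrophil mRNA, and Cxcl3 was 3.13, 22.3 and 319 times. The part of free mRNA in these shares of cells was not tested. Within the 4-ligand UMIs of fibroblast-like cells, Cxcl1 was 76.8%, 83.4% and 92.4%.

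On the CPM scale, more of the listed upstream cytokines were lower than in untreated cells for CO hydrogel than for hydrogel, in neutrophil-like and macrophage or monocyte-like cells. Of 12 upstream cytokines listed, 8 were measured in neutrophil-like cells between CO hydrogel and untreated, of which 6 were lower, where 4.71% of all genes were, with a median log2 ratio of -1.82 against 0.72 for all genes. Between hydrogel and untreated, 3 of 8 were lower, where 2.35% of all genes were, with a median of -0.72. With TMM scaling, the hydrogel to untreated ratios in neutrophil-like cells ran from -2.93 (Csf3) to -1.17 (Il1b), with Osm at -0.62. Those of CO hydrogel to untreated ran from -4.47 (Il1a) to -1.51 (Osm), and Csf3 had no ratio. On that scale 623 of 4641 and 949 of 3822 genes were lower in all. Il1a, an alarm cytokine, was at 197, 74.9 and 19.8 CPM in these cells, and Il23a, a subunit of interleukin-23, at 749, 540.3 and 152 CPM. Il6 was at 461, 118 and 110.4 CPM, and its ratios to untreated were -1.97 and -2.06. In macrophage or monocyte-like cells 2 of 8 upstream cytokines were lower in hydrogel and 4 of 8 in CO hydrogel than in untreated, where 2.17% and 1.39% of all genes were. Csf3, the growth factor that mobilises neutrophils, had macrophage ratios of -0.55 and -3.00, and Osm, a cytokine of the interleukin-6 family, -0.42 and -1.51. In fibroblast-like cells, 8 of 10 were lower in CO hydrogel than in untreated, where 3.44% of all genes were. The list median was -2.29 against 0.13 for all genes. The list counts Il1rn, which encodes an antagonist of interleukin-1 and not an inducer of these chemokines. The lowest ratios were those of Il1rn (-3.72), Il1b (-3.34) and Osm (-3.29). In untreated fibroblast-like cells, these 3 were at 1.44, 1.28 and 1.34 times the level expected from free neutrophil mRNA, and its part in the difference was not tested.

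Of 12 listed genes of the NF-kB response and of mRNA decay, all 12 were within 2-fold in macrophage or monocyte-like cells in each of the 3 pairs, where 94.96%, 95.9% and 92.9% of all genes were. In neutrophil-like cells on the CPM scale, 12 of 12 were within 2-fold between hydrogel and untreated, where 64.2% of all genes were. There, 2 of 12 were lower in CO hydrogel than in untreated, where 4.71% of all genes were: Tnfaip3 (-1.15), which ends NF-kB signalling, and Zfp36 (-1.28), which promotes decay of chemokine mRNA. With TMM scaling, 7 of 12 were lower in hydrogel and 11 of 12 in CO hydrogel than in untreated neutrophil-like cells, as were 623 of 4641 and 949 of 3822 genes in all. In fibroblast-like cells 1 of 12 was higher in hydrogel than in untreated, Atf3 (1.01), where 4.97% of all genes were. Of the upstream receptors, Il17ra was higher in treated neutrophil-like cells on the CPM scale (2.21 and 2.42 to untreated) and with TMM scaling (1.32 and 1.26), and Il1rap was lower in CO hydrogel (-1.05, and -2.20 with TMM scaling). Tlr2 was lower in CO hydrogel than in untreated fibroblast-like cells (-2.14), at 2.20 times the level expected from free neutrophil mRNA in untreated and 7.77 times in CO hydrogel, and the part of free mRNA in the difference was not tested.

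Some of the genes that act downstream of the receptor were higher in treated neutrophil-like cells on the CPM scale. Of the 17 listed, 13 were measured between hydrogel and untreated and 6 were higher, with a median of 0.98, and 7 of 12 were higher in CO hydrogel than in untreated, with a median of 1.05. On this scale 33.5% and 36.3% of all measured genes were higher in these cells and the median gene was at 0.72 in both pairs, and with TMM scaling the list median of CO hydrogel to untreated was -0.11 and 0 of the listed genes were higher in either pair. On the CPM scale, the higher ones included Grk2 (1.62 and 1.82) and Grk6 (1.39 and 1.49), kinases that desensitise receptors such as Cxcr2, and Arrb2 (1.12 and 1.58), the arrestin they recruit, and with TMM scaling these were at 0.73 and 0.67, 0.51 and 0.33, and 0.23 and 0.43. Of other receptors that neutrophils use, Csf3r (1.33 and 1.82) and Cxcr4 (1.74 and 1.92), which holds neutrophils in the marrow, were higher on the CPM scale, but within 2-fold with TMM scaling (0.44 and 0.67, and 0.85 and 0.77). The formyl peptide receptor Fpr2 was lower on both scales (-1.05 and -1.20, and with TMM scaling -1.94 and -2.36).

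Other attractants and the enzymes that trim chemokines showed their own patterns. Ccl3, a CC chemokine, was at 14070.1, 5769 and 2197 CPM in neutrophil-like cells, with ratios of -1.29, -2.68 and -1.39. Cxcl12, the ligand of Cxcr4, was higher in fibroblast-like cells of both treated libraries (1.19 and 1.55), as was the adhesion molecule Vcam1 (1.93 and 2.06). Dpp4, a protease that clips chemokines, was at 194, 19.8 and 80.2 CPM in fibroblast-like cells, where cluster 10, which it leads, was 51.2%, 8.84% and 13.9% of the class. Mmp12 and Mmp13, metalloproteinases, were higher in fibroblast-like cells of both treated libraries (3.65 and 2.26, and 1.22 and 2.38). Summed macrophage or monocyte markers in fibroblast-like cells were at 84.7 CPM untreated, 118 hydrogel and 133 CO hydrogel. Free mRNA was estimated for neutrophils only, and the part of macrophage mRNA in these differences was not tested. In macrophage or monocyte-like cells Alox5, the enzyme that starts leukotriene synthesis, was lower in hydrogel (-1.70) and higher in CO hydrogel (1.05) than in untreated.

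Genes with the most similar levels were sought over 32 units of class and library with at least 100 cells, among 8490 genes, by Pearson correlation of log2(CPM + 1). Units of 1 library share depth and free mRNA, and the values describe these units only. Cxcl1 was most like Ccl2 (0.87), Ier3 (0.87), Cd63 (0.83), Msantd3 (0.82) and Sertad1 (0.81). Cxcl2 was most like Osm (0.98), Clec4e (0.97), Clec4d (0.96), Il1b (0.96) and Tlr2 (0.96). Cxcl3 was most like Prdx5 (0.89), Ccl3 (0.88), Cxcl2 (0.87), Lilrc2 (0.85) and Clec4d (0.85). Cxcl6 was most like Trh (0.81), PCOLCE2 (0.78), Lrrc15 (0.75), Gpc6 (0.75) and Tnfaip6 (0.75), and Cxcr2 like Fetub (0.98), Padi4 (0.96), Ly6al (0.95), Vps4b (0.95) and Max (0.95). Among the members themselves, Cxcl2 and Cxcl3 had 0.87, Cxcl1 and Cxcl3 0.49, Cxcl1 and Cxcl2 0.32 and Cxcl2 and Cxcl6 -0.36. By Spearman correlation, 1, 3, 1, 0 and 0 of the 5 genes of Cxcl1, Cxcl2, Cxcl3, Cxcl6 and Cxcr2 stayed among the 5 most similar.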

How the data were processed

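The 3 single-cell 3′ RNA libraries (10x v3.1) from wounds were analysed. The authors deposited matrices of raw UMI counts per gene and cell barcode. The matrix headers name cellranger 6.0.1, while the submitters' processing notes list Cell Ranger 7.0.0, Seurat 4.2.0, DESeq 1.38.0 and build rn6, and the header's version is the one in the files. Barcodes under 500 UMIs or 300 genes, or above 20% mitochondrial UMIs, were dropped, followed by removal of the highest Scrublet doublet scores at 0.8% per 1000 barcodes (9.31% to 11.4% of cells). Using scanpy 1.11.5, cells of all libraries were clustered on 2000 variable genes without the 5 members (30 principal components, 20 neighbours, resolution 1) and named "-like" from 18 fixed marker lists (score at least 0.2, at least 3 markers in at least 20% of cells). That scoring rule was chosen after the data were seen. Counts were summed by class and library and scaled to 1000000. Intervals are exact Poisson (levels), binomial (shares) and conditional binomial (ratios), for counting error only, and 3 counts is the floor for a 0. Shares of cells were read after thinning to 1000 UMIs. edgeR 4.0.16 gave TMM factors as an alternative, and no test was run. Ratio and free-RNA scripts were tested on simulated data. In the free-RNA simulation the receiving cells made no neutrophil markers of their own, so it does not cover classes that do.

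Members, marker lists and the 9 gene lists were chosen with earlier results of these data known. Named genes were the members, every listed gene at least 2-fold apart in neutrophil-like, macrophage or monocyte-like, fibroblast-like or endothelial-like cells (at most 5 per list and class), from which the text gives examples, and the 5 genes most like each member (at least 100 UMIs in all and 20 CPM in 1 unit). The alternatives without shared barcodes and without Lcn2 were added after seeing the data. Promoters of Cxcl1, Cxcl2, Cxcl6 and Cxcr2 were read from RefSeq (GRCr8).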

Additional observations from a re-analysis of the deposited data

Results flagged for a closer look

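Cxcl6 went opposite ways in different cell classes between the same 2 libraries. Between hydrogel and untreated, its log2 ratio was 2.30 (2.22 to 2.37) in fibroblast-like, 2.57 (2.17 to 3.00) in mural-like and 2.71 (1.93 to 3.59) in keratinocyte-like cells, but -2.60 (-2.99 to -2.22) in macrophage or monocyte-like cells. Without the top 1% of cells, the macrophage ratio was -0.79, within 2-fold. Between CO hydrogel and untreated, it was 2.70 (2.29 to 3.13) in mural-like and -2.80 (-3.34 to -2.29) in macrophage or monocyte-like cells. The difference between classes was not tested, since each group had 1 library. The keratinocyte-like value rests on 15 and 121 UMIs, of which 109 came from 1 hydrogel cell, and 151 of the 167 untreated macrophage UMIs lay in cluster 4.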

How the results depend on the processing

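No paired analysis was possible because each group had 1 library, and no replicate could be left out. All values describe 3 libraries, and their intervals leave out differences between animals. Of 858 values of 82 member ratios recomputed under up to 11 settings, 480 lay within the main counting interval and 378 outside it. A change of sign was counted only for ratios of at least 2-fold, and 0 of these changed. Some smaller ratios did change sign. Between CO hydrogel and untreated, Cxcr2 in neutrophil-like cells went from 0.18 to -0.97 with TMM scaling. In the same pair, fibroblast-like Cxcl6 (-0.02) kept its sign in 5 of 11 settings. The receptor signalling list in neutrophil-like cells, CO hydrogel to untreated, had a median of -0.11 with TMM scaling in place of 1.05.

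Counts of member-by-class values at least 2-fold apart moved as follows. Hydrogel above untreated went from 3 to 5 with no minimum. CO hydrogel above untreated went from 1 to 2 when libraries were clustered alone or cells thinned, and to 3 without doublet removal or with no minimum. CO hydrogel below hydrogel went from 10 to 5 with the stricter cell filter, and CO hydrogel above hydrogel from 0 to 1 when libraries were clustered alone, with the stricter filter or with no minimum.

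The neutrophil-like share of ligand UMIs in the untreated library (57.5%) was 57.4% with the members among the variable genes, 57.2% at resolution 2, 57.6% with libraries clustered alone, 43.2% with the stricter filter, 57.0% without doublet removal, 58.2% without shared barcodes and 71.7% over named classes. In hydrogel (14.9%) the same settings gave 13.7%, 11.9%, 17.3%, 12.8%, 10.5%, 15.2% and 17.7%. In CO hydrogel (1.76%) it was 1.72% at resolution 2, 1.11% with the stricter filter, 1.53% without doublet removal and 1.83% over named classes.

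Ligand levels at least 2 times the free estimate numbered 7 (highest marker ratio) and 11 (highest without Lcn2) in place of 17 in untreated, 6 (highest) and 13 (all cells as the source) in place of 21 in hydrogel, and 11 (lowest ratio, with 11 measurable) and 13 (all cells) in place of 26 in CO hydrogel.

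With at least 20 UMIs, genes higher and lower in neutrophil-like cells were 3515 and 197 (hydrogel to untreated), 3401 and 387 (CO hydrogel to untreated) and 475 and 437 (CO hydrogel to hydrogel), in place of 1554 and 109, 1387 and 180, and 47 and 74. TMM scaling gave 102 and 623, 58 and 949, and 20 and 159, so the share that was higher went from 93.4%, 88.5% and 38.8% to 14.1%, 5.76% and 11.2%. In fibroblast-like cells, hydrogel to untreated, it gave 371 and 391 in place of 493 and 294, and at least 20 UMIs gave 1076 and 503. The cause of these shifts was not tested.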
